A study of Homo sapiens with 6 samples.

Results

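Retinoic acid reaches its receptors through a short chain of proteins, and 10 genes of that chain were followed here in the open chromatin of neuroblastoma cells that had become resistant to indisulam. RARA, RARB and RARG encode the retinoic acid receptors, and RXRA and RXRB encode the retinoid X receptors with which they pair on DNA. ALDH1A2 encodes an enzyme that makes retinoic acid, CYP26A1 and CYP26B1 encode enzymes that break it down, and CRABP1 and CRABP2 encode proteins that bind it inside the cell. The heterodimer binds a pair of hexamers, and when ligand is present it exchanges corepressors for coactivators; RARB and CYP26A1 are classical targets of this switch. Retinoic acid differentiates neuroblastoma cells and is given to patients with high-risk disease. The 10 genes were taken by name, out of 20007 protein-coding genes, and every called peak that overlapped a gene body or lay within 10 kb of either end was kept.

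In hg38 with GENCODE annotation, the receptor genes lie at chr17:40309180-40357643 (RARA, plus strand), chr3:24687887-25597932 (RARB, plus strand), chr12:53210567-53232980 (RARG, minus strand), chr9:134317098-134440585 (RXRA, plus strand) and chr6:33193588-33200665 (RXRB, minus strand). CRABP1 lies at chr15:78340353-78348225 on the plus strand and CRABP2 at chr1:156699606-156705816 on the minus strand. ALDH1A2 lies at chr15:57953424-58497866 on the minus strand, CYP26A1 at chr10:93073475-93077885 on the plus strand and CYP26B1 at chr2:72129238-72147862 on the minus strand.

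The data were ATAC-seq peak lists, which mark DNA that the Tn5 transposase can reach. The cells came from SK-N-AS, an established neuroblastoma line, grown as xenografts in mice and returned to culture. Naive cells were derived from tumors of vehicle-treated mice, and R1 and R2 from tumors at their second relapse, harvested under indisulam, a degrader of the splicing factor RBM39. The cultured cells received no treatment before the assay, each group had 2 libraries of 100000 cells, and nothing in the descriptions says that the libraries of a group came from separate cultures or tumors, so the spread between them may be technical. R1 and R2 are each a single derived line, and they share their naive controls. A difference between lines and a difference from resistance therefore cannot be told apart. Mouse host cells could remain in such cultures, and their part in the values was not tested.

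The 6 lists differed greatly in length, from 67558 and 73484 peaks in R2 through 154926 and 115694 in naive cells to 340558 and 292030 in R1. The background rate recovered from the peak files, the tags expected at a site by chance, was 2.29 and 1.35 in naive cells, 7.94 and 5.43 in R1, then 0.8503 and 0.8988 in R2. Depth and cell type thus cannot be told apart by presence alone. Each list was therefore also cut at rank 67558, the length of the shortest list, and levels are given as summit tags divided by the library's background rate. That ratio is not on 1 scale across libraries. At the CYP26A1 start, 5.92 in the first R1 library had rank 63875, and 8.23 in the first R2 library had rank 64693.5. Percentile ranks within regions common to all lists correlated at 0.819 between the naive libraries, 0.965 between the R1 libraries and 0.777 between the R2 libraries, against 0.674 to 0.740 between libraries of unlike cells. Start peaks of cell identity genes were present in all 6 cut lists for 7 of 10 adrenergic and 6 of 10 mesenchymal neuroblastoma markers, for 0 of 5 white blood cell markers (PTPRC and CD3E had none in any list) and for 1 of 5 epithelial markers, EPCAM. By library, epithelial markers numbered 1 and 3 of 5 in naive cells, 5 and 3 in R1, 1 and 1 in R2. White blood cell markers numbered 0 and 2, 2 and 2, and 1 and 1 of 5, and SPI1 among them had a start peak in all 6 full lists.

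Sequences with a repeat of the receptor hexamer are shown first, since the retinoic acid receptors and their partners recognize them. A DR5 element was defined as 2 hexamers (any of AGGTCA or GGGTCA or AGTTCA or GGTTCA) on the same strand with 5 bases between, and both strands were searched in hg38. The windows of the 10 genes held 13 such elements, 6.87 per Mb against 1.88 per Mb in the genome, and 7 of them lay under a called peak in at least 1 library. Those 7 are given here 5′ to 3′ on the strand of the repeat, with the hexamers in capitals.
RARB: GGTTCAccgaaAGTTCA
CYP26A1 at the start: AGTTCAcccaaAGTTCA
CYP26A1 proximal: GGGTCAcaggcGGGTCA
CYP26A1 distal: GGTTCActaagGGGTCA
RARA: AGTTCAgcgagAGTTCA
RXRA: GGTTCAtctgaGGGTCA
RXRB: AGGTCActcaaAGGTCA

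The RARB element, chr3:25428210-25428226 on the plus strand, had position −53 relative to the canonical start and lay in an untranslated exon of other RARB transcripts. It was under a peak in 4 libraries, naive 1, both of R1 and the first of R2. The CYP26A1 element at the start, chr10:93073803-93073819 on the minus strand, had position −90, also in an untranslated exon, and was under a peak in naive 2 and both R1 libraries. The proximal element of CYP26A1, chr10:93071917-93071933 on the plus strand, had position −1558 relative to the first annotated start and was covered in the first R1 and the second R2 library. The distal element, chr10:93070522-93070538 on the minus strand, had position −2953 and was covered in naive 1 and both R1 libraries. The elements of RARA, RXRA and RXRB were intronic. The RARA element, chr17:40341653-40341669 on the plus strand, lay 265 bases downstream of an internal start, chr17:40341388, and was the only DR5 element of the 10 genes under a peak in all 6 libraries. The RXRA element, chr9:134375518-134375534 on the plus strand, was covered in 5 libraries, all but the second of R2. The RXRB element, chr6:33195471-33195487 on the plus strand, was covered in 4 libraries, both naive and both R1.

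By library, 5 and 4 of the 13 elements were under a peak in naive cells, 7 and 6 in R1, 3 and 2 in R2. The corresponding shares of all 5805 elements of the genome were 5.81% and 4.41%, 16.1% and 13.1%, and 1.57% and 1.96%. Over all libraries the share for the genome was 17.4%. Open DR5 elements were thus more frequent in these windows than in the genome in each library, but the windows were chosen around genes, where peaks are dense, and no test was made. The 6 elements never under a peak lay in introns of RARB (3 elements) and ALDH1A2 (2 elements) and downstream of CYP26A1. Among RefSeq promoters (250 bases before to 50 after a start, GRCh38), a DR5 element was found in 31 of 35116, or 0.0883%, and in 2 of the 19 promoters matched to the 10 genes, those of RARB and CYP26A1.

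**Figure D1:**
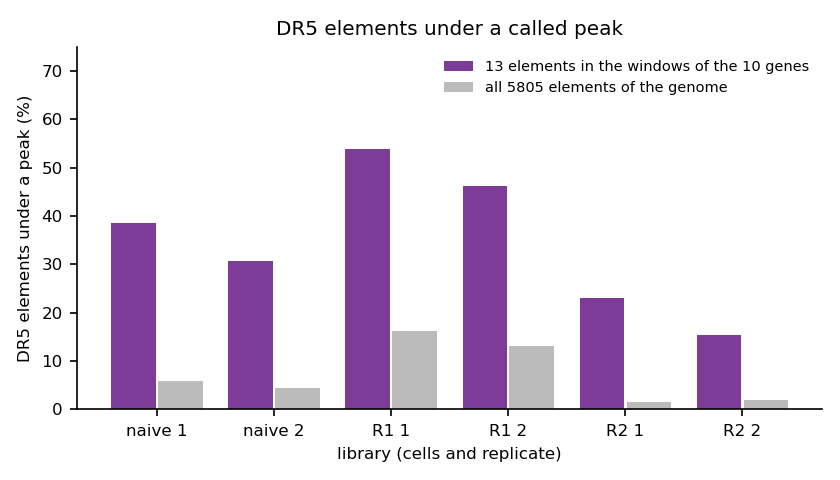
Share of DR5 elements under a called peak in each library, for the 13 elements in the windows of the 10 genes (purple) and all 5805 of the genome (grey); bars start at 0. The member share was highest in R1 (7 and 6 of 13) and lowest in R2 (3 and 2 of 13), and was above the genome share in each of the 6 libraries.

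Starts separated the genes into those open everywhere and those that differed between libraries. A start peak was a peak within 1 kb of the start of any annotated basic transcript. RARA, RARG, RXRA, RXRB and CRABP2 had a start peak in all 6 libraries, in the full and in the cut lists. Over all protein-coding genes 57% had one in all 6 full lists and 53.3% in all 6 cut lists, so 5 of 10 is near the background. In the cut lists the members with a start peak numbered 7 and 6 of 10 for naive cells, 10 and 10 for R1, 9 and 8 for R2. The share of all genes was 64.3% and 61.6% in naive cells, 75.2% and 74.1% in R1, 63.2% and 63.4% in R2. The other 5 genes, RARB, CYP26A1, CYP26B1, ALDH1A2 and CRABP1, lacked the peak in at least 1 library. No member lacked it in all 6 libraries (13.2% of genes in the full and 22.2% in the cut lists), had it in both naive libraries alone (0.02% and 0.17%) or had it in both R1 libraries alone (7.11% and 3.39%).

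**Figure D2:**
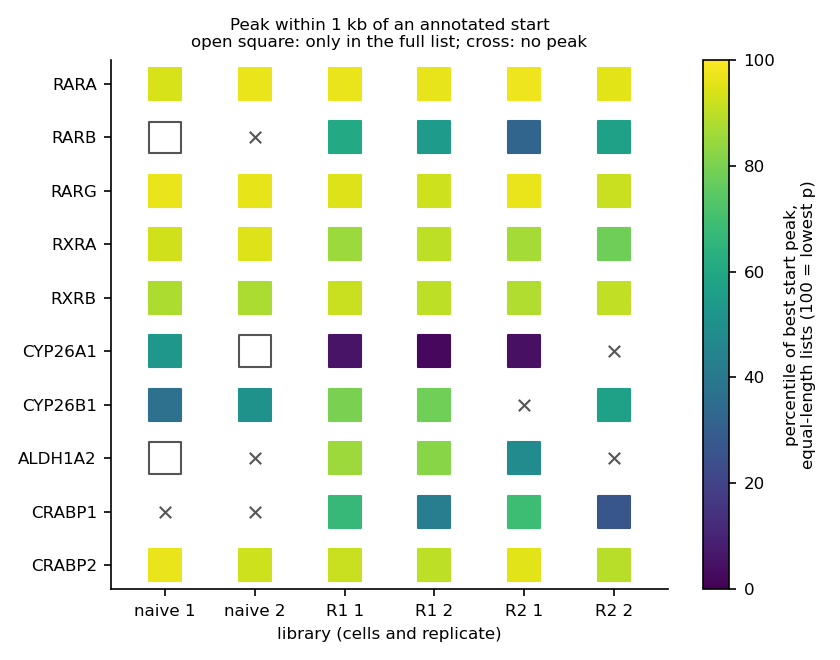
Best peak within 1 kb of an annotated start of each gene (rows) in each library (columns); colour is its percentile rank in lists cut at rank 67558, where 100 is the lowest p-value. RARA, RARG, RXRA, RXRB and CRABP2 were filled in all 6 columns, whereas CRABP1 had crosses in both naive columns and none in the 4 resistant columns.

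Among the receptors, RARA had the highest mean percentile rank at a start, 97.9 over the 6 full lists, followed by RARG at 97.1, RXRB at 93.8, RXRA at 92.4 and RARB at 50.5, where the missing naive 2 peak of RARB counted as 0. The best start of RARA, chr17:40318281, an internal start, gave tags over background of 19.7 and 27.4 in naive cells, 29.2 and 28.0 in R1, 36.5 and 30.0 in R2. The lowest value was in a naive library, and its 95% Poisson interval, 14.3 to 26.3, overlapped those of both R1 libraries. The canonical first start of RARA, chr17:40309180, was weaker, at 8.74 and 9.62 in naive cells, 13.2 and 12.7 in R1 and 8.23 in the first R2 library, with no peak called in the second. RARG, whose best start was chr12:53220259, gave 23.6 and 26.6, 25.8 and 22.1, and 34.1 and 23.4 in the same order. The groups overlapped at RARG. RXRA gave 18.4 and 23.7 in naive cells, 16.0 and 19.3 in R1, 19.99 and 15.6 in R2 at its canonical start, chr9:134326455, and the groups overlapped there too. RXRB, whose start region chr6:33198971-33202199 is shared with the zinc transporter gene SLC39A7 on the opposite strand, gave 14.9 and 17.02 in naive cells, 21.4 and 19.7 in R1, 21.2 and 22.3 in R2. At RXRB both naive values lay below all 4 resistant values, yet each naive interval (10.3 to 20.8 and 10.8 to 25.5) reached the resistant range. Means with SDs (n = 2 libraries) were 15.9 ± 1.53, 20.5 ± 1.22 and 21.7 ± 0.766. An exact rank-sum test of 2 naive against 4 resistant libraries, with 15 possible splits, cannot give a two-sided p below 0.133. No such single value could therefore pass 0.05 in it.

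RARB behaved differently from the other receptors. The second of its 4 start clusters, chr3:24829323, far upstream of the canonical start, had a peak in both R1 libraries, at 8.94 and 8.46, and in the second R2 library, at 12.2, and in neither naive library. The lowest level called was 3.93 in naive 1 and 5.18 in naive 2, below those values. The canonical start, chr3:25428263, carried the DR5 element shown above and had a peak in 4 libraries, with 5.68 in naive 1, 5.16 and 4.60003 in R1 and 10.6 in the first R2 library. Both R1 levels lay within the interval of the naive one, 3.03 to 9.72, and its peak in naive 1 and those in R1 fell outside the cut lists. In the cut lists RARB had some start peak in all 4 resistant libraries and in no naive one, a pattern of 1.57% of genes (1.64% had a start peak in both R2 libraries and no naive one), but the start differed between the R2 libraries and the full list of naive 1 held 1 peak. Peaks were otherwise scarce along the 910046 bases of RARB. The window held 9 merged regions, none in all 6 libraries, and the lists had 1 and 0 peaks in naive cells, 8 and 5 in R1, 1 and 1 in R2. By contrast the window of RARA held 21 merged regions, and 54.9% and 34.3% of its bases were under peaks in naive cells, 81.9% and 79.1% in R1, 21.4% and 19.0% in R2. In each full list at least 92.8% of protein-coding genes had a smaller share of their window covered than RARA, and at most 24.002% had a smaller share than RARB.

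**Figure D3:**
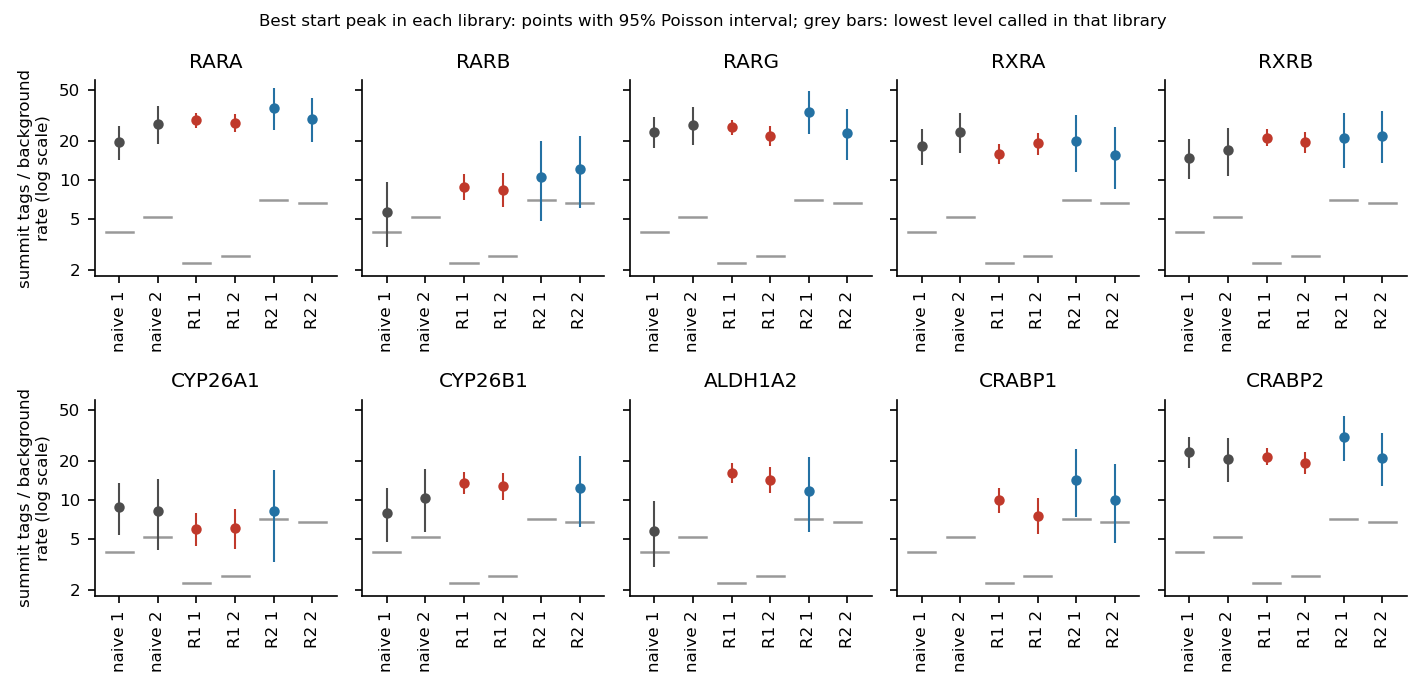
Summit tags divided by the background rate (log axis) at the best start peak of each gene in each library, as points with 95% Poisson intervals, which cover counting error only; grey bars mark the lowest level called in that library. For CRABP1 the naive columns show only the bars, at 3.93 and 5.18, and the 4 resistant points lie between 7.54 and 14.1.

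CRABP1 was the only one of the 10 genes with a start peak in all 4 resistant libraries and in no naive library in both the full and the cut lists. Its start, chr15:78340353, gave 79 tags at the summit in the first R1 library and 41 in the second, 9.95 and 7.54 times background, and 12 and 9 tags in R2, 14.1 and 10.0 times background. Neither naive list held a peak within 1 kb, although peaks elsewhere in those lists were called from 3.93 and 5.18 times background upward. The 95% intervals of both R1 levels (7.88 to 12.4 and 5.41 to 10.2) and of the first R2 library (7.29 to 24.7) lay above both naive limits, whereas that of the second R2 library (4.58 to 19.0) did not. Those limits are the lowest levels called, not bounds on the naive level. The naive level at this start, with its own counting error, is not known, and the difference was not tested. Of 20007 protein-coding genes 81, or 0.405%, had this pattern in the full lists (0.415% had the peak in both R2 libraries and no naive one) and 314, or 1.57%, in the cut lists. The peaks were of middling rank, at percentiles 67.1 and 41.8 in R1, 68.7 and 26.6 in R2 of the cut lists. None was among the best 20000 peaks of its list, and at a −log10 q of at least 5 the second R2 library had no start peak. Elsewhere in the CRABP1 window naive cells had 4 and 2 peaks, so the locus was not without signal. The merged region over the start, chr15:78339528-78341831, was 1 of 19 in the window, and it was the only one of the 19 with a peak in both R2 libraries.

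The 200 bases before the CRABP1 start, chr15:78340153-78340352 on the plus strand (hg38), are shown because the resistant peaks overlapped them. Summits lay at −88 and 44 relative to the start in R1 and at 18 and 128 in R2. Only that of the first R1 library was inside this stretch, and the first R2 peak began within it, at chr15:78340203. These 200 bases hold no DR5 element and no repeat of the hexamers with 1 or 2 bases between. Their GC content is 73.5% with 17 CpG dinucleotides, and they overlap an exon of an unnamed antisense RNA gene. The capitals mark the only match to TGANTCA, the motif bound by AP-1 factors.
CRABP1: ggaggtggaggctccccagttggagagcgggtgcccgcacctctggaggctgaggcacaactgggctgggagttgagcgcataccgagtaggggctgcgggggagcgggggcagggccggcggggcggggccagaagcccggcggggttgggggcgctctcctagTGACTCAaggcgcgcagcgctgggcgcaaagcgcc
TGANTCA was found within 150 bases of a summit in 25 of the 220 merged regions of the 10 genes, 11.4%, and in 9.81% of all regions, so the match is a common one.

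The related gene CRABP2 stood at the other end. Its start on chromosome 1 gave 23.6 and 20.7 times background in naive cells, 21.7 and 19.3 in R1, 30.6 and 21.1 in R2, and the groups overlapped. Peaks covered 78.8% and 53.8% of its window in naive cells, 95.7% and 92.7% in R1, 40.5% and 40.1% in R2, and at least 96.9% of protein-coding genes had a smaller share in each full list. The window of CRABP1 was covered over 2.94% and 1.4997% in naive cells, 41.2% and 27.7% in R1, 3.00% and 1.68% in R2. The large R1 coverage of CRABP1 was called in the deepest libraries, whose weakest peaks had 2.27 and 2.58 times background.

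ALDH1A2 had its best start peak in R1. The merged region of that peak, chr15:58065004-58066629, also lay within 1 kb of a start of the antisense gene ALDH1A2-AS1. At the canonical start of ALDH1A2, chr15:58065711, the level was 16.2 and 14.4 times background in R1. It was 5.68 in naive 1 and 11.8 in the first R2 library, with no peak in naive 2 or in the second R2 library. The R1 intervals (13.6 to 19.3 and 11.3 to 17.9) lay above that of naive 1 (3.03 to 9.72), while that of R2 (5.64 to 21.6) overlapped both. Both R1 libraries, and no other, had the ALDH1A2 start peak among their best 20000 peaks. Its summit lay upstream at nearly the same place in the 4 libraries, from −700 to −755 relative to the start. The R1 peaks, 1611 and 1626 bases wide, reached over the start. Those of naive 1 and R2, 436 and 270 bases wide, ended before it, but naive 1 had a further peak over the start itself, from −97 to 102, at 4.81 times background, in the full list. A start peak in both R1 libraries and in no naive one, the pattern of ALDH1A2, CRABP1 and RARB in the cut lists, was seen in 7.46% of genes. With the full lists CRABP1 alone of the 10 genes kept it, against 8.7% of genes.

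Far from that start, the strongest peak in the ALDH1A2 window was present in all 6 libraries. It lay at chr15:58331782-58332598, in an intron of the longest ALDH1A2 transcripts, and gave 16.2 and 17.8 times background in naive cells, 17.8 and 20.6 in R1, 23.5 and 27.8 in R2. Both R2 values were above the other 4. In the cut lists, however, the second R1 library (percentile 91.2) ranked above the first R2 library (90.99), with the second R2 library highest (94.7). Among regions common to all lists, the percentile rank of this peak differed by 8.83 (SE 6.20) between R2 and naive cells. Between R1 and R2 the difference was −10.5 (SE 6.20), and neither passed the test (limma, adjusted p = 0.469 and 0.389). The other 99 merged regions of ALDH1A2 were in 1 to 4 libraries. The window also holds the genes AQP9 and LIPC. The 200 bases centred on the summit of the first R1 library, chr15:58332289-58332488 on the plus strand, again with TGANTCA in capitals, had a GC content of 58.0%, against 73.5% before the CRABP1 start. Summits in the 6 libraries lay from −379 to 1 relative to that one, so not all were inside this stretch.
ALDH1A2 intron: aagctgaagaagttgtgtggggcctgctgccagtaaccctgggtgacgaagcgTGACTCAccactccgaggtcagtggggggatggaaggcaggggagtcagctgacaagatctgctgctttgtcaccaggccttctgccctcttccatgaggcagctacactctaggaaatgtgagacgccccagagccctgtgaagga

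**Figure D4:**
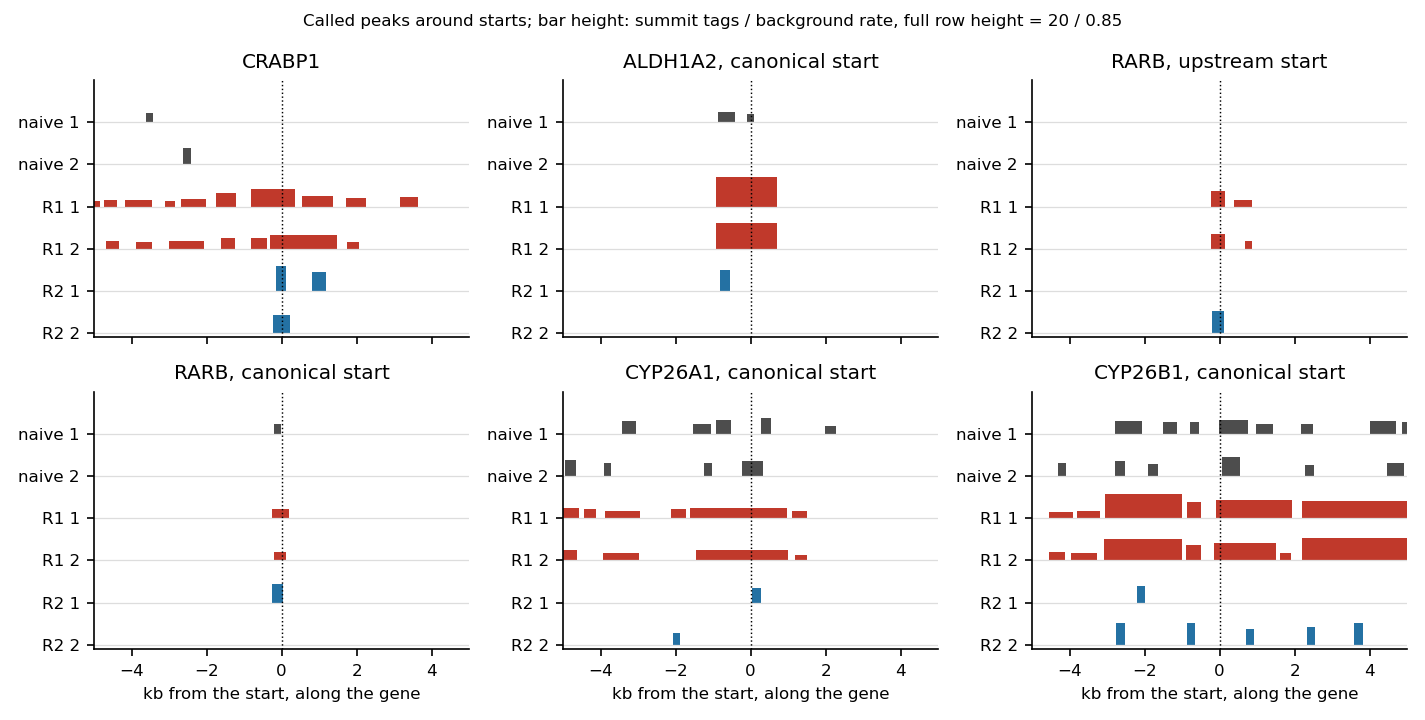
Called peaks within 5 kb of 6 starts, drawn by distance from the start along the gene, with bar height proportional to summit tags over background up to a cap of 20 and 1 row per library. At CRABP1 the 4 resistant rows, and neither naive row, have a bar over the start; at ALDH1A2 the R1 rows have bars of 1611 and 1626 bases over it.

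The enzymes that clear retinoic acid had weak or moderate starts. At the CYP26A1 start the level was 8.74 and 8.14 times background in naive cells, 5.92 and 6.07 in R1 and 8.23 in the first R2 library, and no peak was called in the second. The naive means and R1 means were 8.44 ± 0.425 and 5.995 ± 0.109 (SD, n = 2), but the naive intervals (5.34 to 13.5 and 4.06 to 14.6) took in both R1 values. By rank in the full lists the R1 peaks (63875 and 66078) lay between naive 1 (31407) and naive 2 (68186.5). A lower level in R1 is therefore not shown. R2 calls began at 7.06 and 6.68 times background, close to the levels of the other cells, so a difference at the missing R2 peak was not detectable at this depth. The best-ranked peak of the CYP26A1 window in R1 lay in the neighboring gene CYP26C1, at 11.3 and 7.91 times background. CYP26B1 gave 7.87 and 10.4 at its canonical start in naive cells. Its best start peaks were at 13.5 and 12.7 in R1 and at 12.2 in the second R2 library, and none was called in the first. All 3 were above both naive values, but none came from a peak over the canonical start. The first R1 peak had its summit at −2625 and its nearest edge at −997 relative to that start, and the second was a peak of 14911 bases over another start, chr2:72143084. The R2 value came from equal peaks, from −875 to −666 relative to the canonical start and from −1205 to −963 relative to the other. The R1 peaks that covered the canonical start gave 10.5 and 9.94, near the naive 2 value of 10.4. Start peaks in both naive and both R1 libraries but not in both R2 libraries were found for CYP26A1 and CYP26B1 in the full lists, against 10.2% of genes, and for CYP26B1 in the cut lists, against 4.6%.

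Across the 10 windows 220 merged regions were found, of which 82 were called in a single library and 27, or 12.3%, in all 6, against 6.47% of all 373067 merged regions. RARA contributed 7 of the 27, RXRA 6, RXRB 5, RARG 4, CYP26B1 and CRABP2 2 each and ALDH1A2 1, and RARB, CYP26A1 and CRABP1 none. Merged regions differ in width because joined R1 peaks can be very wide, and the region over the RXRA start spanned 74377 bases. The windows of RARA, RARB, RARG, RXRB, CYP26A1 and ALDH1A2 also take in parts of neighboring protein-coding genes, so a region in them need not belong to the member. Of the RARA regions in all 6 libraries, chr17:40303022-40304160 lay in CDC6 and chr17:40360721-40365224 over the start of GJD3, and of those of RARG, chr12:53241631-53242932 lay over the start of an unnamed gene. A stricter rule took peaks of the first R2 list and asked that they and a peak of every other list each overlap the other by a fraction of 0.5. Then 1 of 177 member peaks was in all 6 libraries, against 5.37% of all, so the excess did not hold under that rule. A narrow R2 peak inside a very wide R1 peak fails that rule by width alone. With any overlap, 98 of the 177 had a peak in every list, against 36449 of all 67558.

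The level of the 27 regions was compared between cells by their percentile rank, with limma over all 24147 regions that had a peak in every list. No member region passed an adjusted p of 0.05 in R1 against naive cells, R2 against naive cells or R1 against R2. Over all regions 7.64%, 0% and 2.68% did (3.32% higher and 4.32% lower in R1 than in naive cells, 0.464% higher and 2.22% lower in R1 than in R2). At an unadjusted p under 0.05 there were 6, 5 and 3 of 27 member regions, against 26.2%, 19.9% and 20.6% of all regions. In simulated data with as many libraries per group, none of 1000 regions changed by a median of 45.8 points in either direction was called. With shifts toward the far end of the ranks, 69.3% and 85.8% were, at medians of 57.9 and 65.7 points. The simulation drew 1 spread per group for all regions. Its rates are therefore not the power of the fit to the data, which called 1844 of 24147 regions in R1 against naive cells.

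The lowest adjusted p-values in R1 were at RARA and CYP26B1. The RARA region chr17:40310818-40315070, between the canonical and the internal start, had percentiles of 72.4 and 71.5 in naive cells, 31.9 and 36.8 in R1, 63.6 and 66.3 in R2. Both R1 libraries stood well below the other 4. The difference from naive cells was −37.6 points (SE 9.33, adjusted p = 0.0549) and from R2 −30.6 points (SE 9.33, adjusted p = 0.128), and neither passed. The CYP26B1 region chr2:72148859-72150948, just upstream of the canonical start, had percentiles of 12.7 and 7.38 in naive cells, 49.96 and 44.05 in R1, 5.36 and 29.5 in R2. Both R1 libraries were above the other 4, and the difference from naive cells was 37.0 (SE 9.75, adjusted p = 0.0630). The R2 libraries disagreed with each other here. Leaving out either R2 library brought both regions past the threshold in R1 against naive cells, at adjusted p of 0.0414 and 0.0421 for RARA and 0.0324 and 0.0286 for CYP26B1, and normal scores of the ranks brought the RARA region past it at 0.0377. Leaving out the first R1 library gave 0.389 and 0.363, the highest over 10 alternatives.

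The 6 RXRA regions all had negative differences between R1 and naive cells, as had 18 of the 27 member regions, and none passed the test. The median difference was −4.63 points over the member regions and 0.00414 over all 24147 regions. Regions of 1 gene window are neighbors and not independent, and the direction was not tested. The region chr9:134398186-134429929, within the gene body, had percentiles of 90.8 and 83.5 in naive cells, 61.6 and 68.5 in R1, 67.5 and 70.0 in R2, with all 4 resistant values below both naive values (R1 minus naive −22.1, SE 6.13, adjusted p = 0.0722; R2 minus naive −18.4, SE 6.13, adjusted p = 0.168). The region over the end of RXRA, chr9:134440116-134444304, differed by −21.4 in R1 (SE 6.64, adjusted p = 0.0949). At RARG the region over the canonical start, chr12:53228798-53234865, had 56.9 and 58.5 in naive cells, 38.6 and 30.8 in R1, 31.8 and 29.5 in R2 (R2 minus naive −27.0, SE 9.32, adjusted p = 0.179). The opposite was seen at the RXRB window's region chr6:33203371-33206024, which lies over the start of the neighbor HSD17B8, with 70.6 and 54.4 in naive cells, 80.3 and 84.9 in R1, 79.6 and 87.4 in R2 (R1 minus naive 20.1, SE 6.85, adjusted p = 0.118). The largest difference in R2 was at the RARA region chr17:40329883-40332932, within the gene body, with 72.4 and 65.8 in naive cells, 37.2 and 56.4 in R1, 12.8 and 45.3 in R2 (R2 minus naive −40.0, SE 13.9, adjusted p = 0.180). Both R2 values were below both naive values, but they were far apart. At the RXRA start region R2 differed from naive cells by −24.0 (SE 8.46, adjusted p = 0.187). The RARA region over the internal start differed by 2.52 (SE 3.03) between R1 and naive cells and by 3.27 (SE 3.03) between R2 and naive cells, and the CRABP2 start region by −10.7 (SE 5.35) and −2.17 (SE 5.35), with adjusted p of 0.256 or more.

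**Figure D5:**
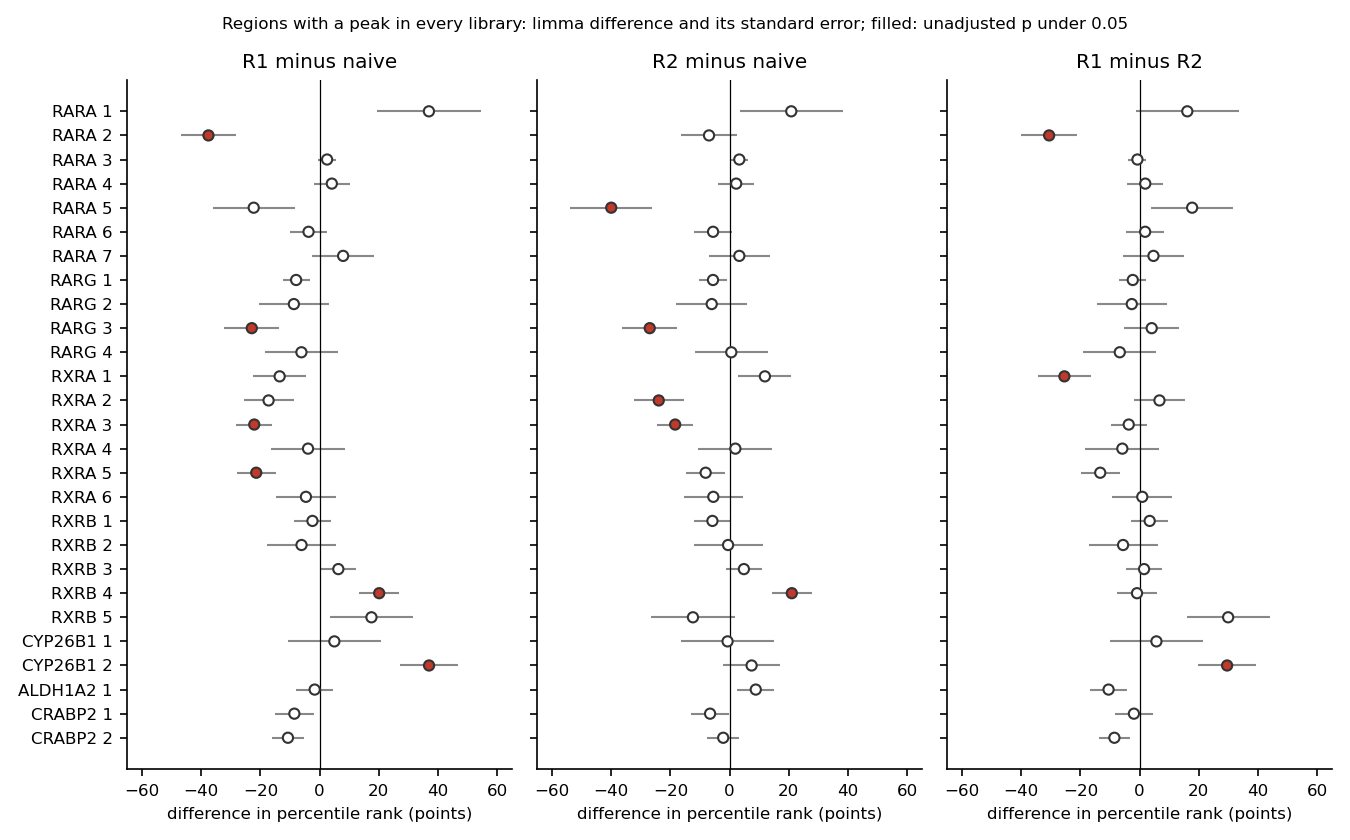
Difference in percentile rank (points) for the 27 regions with a peak in every library, numbered along each chromosome within each gene, with the limma standard error as bars; filled points have an unadjusted p under 0.05. RARA 2 and CYP26B1 2 are the 2 largest differences in R1 with a filled point, at −37.6 and 37.0, and no point passed an adjusted p of 0.05.

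Other genes of the pathway were read from lists of starts. Of 12 genes of retinoid transport and metabolism, 6 had a start peak in all 6 cut lists and 2 had none in any library. RDH10, which oxidizes retinol, had the highest mean percentile (a missing peak counted as 0), 93.5, and ALDH1A1 and BCO1 were the 2 without a peak. Of 12 receptor partners and cofactors 9 were open in all 6 cut lists, with the coactivator gene NCOA3 highest at a mean of 98.5. RXRG, the remaining retinoid X receptor gene, was lowest, with peaks at percentiles 64.1 in naive 2, 95.8 and 94.1 in R1 and 60.5 in the second R2 library and none in the other 2 libraries. Of 14 known retinoic acid target genes 7 were open in all 6 cut lists. Their means ran from 36.7 for STRA8, a gene of meiosis, to 94.6 for ZNF423, which encodes a zinc finger cofactor of the receptors. Of all protein-coding genes 53.3% were.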

How the data were processed

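Peak lists of 6 ATAC-seq libraries were used. Per the labels and the study's methods, the authors aligned reads with BWA 0.7.12-r1039, marked duplicates with Picard 1.65, filtered with SAMtools 1.3.1, removed mitochondrial reads, shifted reads by +4 and −5 bases and called peaks in each library with MACS2 2.2.7.1 at q of 0.01, an extension of 200 and a shift of 100. The methods name hg19 and the labels hg19 and hg38. Peak ends lay within hg38 chromosome lengths, and annotation was GENCODE release 44. The deposited lists give fold enrichment (a ratio), −log10 p and −log10 q per peak; replicates were not pooled. The deposited score column, an integer the authors' caller wrote per peak, was not used.

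Fold enrichment equalled (tags + 1)/(rate + 1) with 1 rate per library for 100% of peaks (tolerance 0.02), which gave whole tags at the summit and the background rate. Tags over rate assumes a uniform background. Peaks were ranked by −log10 p, and peaks tied at the last rank of a cut list were kept or dropped together (a rule chosen after seeing the data), which left 59776 to 69082 peaks. Peaks of all lists overlapping by 1 base were merged, and each region took its best peak. Percentile ranks over 24147 regions with a peak in every list were compared with limma 3.58.1 (trend, all groups in 1 fit, 3 residual degrees of freedom) and Benjamini-Hochberg adjustment at 0.05 in R 4.3.3. All members were named, with regions given singly where they touched a start, held a DR5 element, ranked best or stood out by unadjusted p (the last chosen after their values were seen). The members and lists were chosen with earlier results of these data known.

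The fit was tested on simulated data for R1 against naive cells over 24147 regions in 4 versions, all kept. In the first 3, with shifts of 1 and 2 normal scores, none of the changed regions was called, though at least 99.0% had the right direction. In the fourth, changed in size and direction after those failures, shifts of 2 and 3 ran toward the far end of the ranks. At those shifts (median 57.9 and 65.7 points) 69.3% and 85.8% of regions were called, and 15 of 22147 unchanged regions. Intervals are exact Poisson at 95% and cover counting error only. Tables were made with pandas 2.3.3, NumPy 2.4.6 and SciPy 1.17.1 under Python 3.11.15.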

Additional observations from a re-analysis of the deposited data

How the results depend on the processing

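Of the summary counts recomputed under alternatives, 85 stayed within 1.5 times and 11 moved. A count of 0 that remained 0 was taken as having stayed. Where 0 of all regions passed, as in most settings of R2 against naive cells, the member count could only be 0. Such rows say nothing about stability. Of the values for single genes and regions, 217 stayed, 23 counts of libraries with a start peak moved and in 5 cases a region newly passed the threshold. Those cases, each 1 region under 1 setting, all came from the RARA region chr17:40310818-40315070 and the CYP26B1 region chr2:72148859-72150948. Member regions passing in R1 against naive cells, 0 of 27, became 1 with normal scores (10.96% of all regions passed), 2 of 75 in cut lists with absent peaks at the lowest rank (6.54%), 1 of 21 at a −log10 q of at least 5 (7.99%) and 4 at a threshold of 0.1 (15.1%). Leaving out a library gave 0 to 2, with 2 without either R2 library (12.1% and 11.95%); the arm with 1 library is assumed to vary like the others. For peaks of the first R2 list found in every list, 3 of 98 passed in R2 against naive cells (3.27% of all) and 6 of 98 in R1 against R2 (11.2% of all). Regions in all 6 libraries numbered 55 of 459 in 50 kb windows (6.47% of all). They numbered 1 of 177 when a fraction of 0.5 of both peaks had to be shared (5.37% of all, so the member share fell below the background). DR5 elements under a peak numbered 11 of 18 in 50 kb windows. The cause was not tested.

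Over all regions the 1844 called in R1 against naive cells became 6532 of 99815 with absent peaks at the lowest rank, 3642 at a threshold of 0.1, and 30 to 2923 when a library was left out, the lowest without the first R1 library. The 0 called in R2 against naive cells (limma; 4803 at an unadjusted p under 0.05) became 494 with normal scores, 1191 with peaks of the first R2 list, 311 centred by chromosome and 1143 at a threshold of 0.1. The 648 called in R1 against R2 became 1530, 4092, 800 and 1736 under the same settings, 0 with absent peaks at the lowest rank, and 0 to 160 when a library was left out. Same-numbered libraries did not deviate together in their ranks over the common regions (correlations 0.0309, −0.0223 and −0.000842). Ranks within a library cannot show effects on depth, so pairing of libraries by preparation or run is not excluded. With the replicate block 0 member regions passed in each comparison, and 1419, 0 and 332 of all regions. CRABP1 kept its presence pattern in lists of 50000, when ordered by fold, for peaks over the start itself and with all ties kept. Depth limits what R2 can show, since its calls began at 7.06 and 6.68 times background.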
